A study of Mus musculus with 18 samples.

Results

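The replication-dependent histone genes encode the linker histone H1 and the core histones H2A, H2B, H3 and H4 that package newly made DNA. Members were the probe sets of the array table that are annotated with exactly 1 gene symbol, where that symbol is a clustered histone gene (H1f1 to H1f5, H2ac, H2bc, H3c or H4c, formerly Hist1h and Hist2h). The rule found 26 probe sets for 26 genes among 24922 probe sets: 4 of H1, 4 of H2A, 9 of H2B, 3 of H3 and 6 of H4. By their older symbols 22 belong to the Hist1 cluster and 4 (H2bc18, H2bc21, H3c15 and H4c14) to the Hist2 cluster. The rule used annotation and no measured value. Genes of a class are near-identical in their coding sequence, so a probe set annotated to 1 gene may also take up signal of its copies, and the assignment to single genes is uncertain.

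The cells were regulatory T cells (Tregs), a class of CD4+ cell defined by Foxp3 that holds immune responses in check, of the NOD mouse, a strain prone to autoimmune diabetes. Each of 6 groups had 3 arrays (Affymetrix Mouse Gene 1.0 ST). The 4 spleen groups came from mice labelled female and 60 days old, of the cross Foxp3-eGFP-Cre-ERT2 x Rosa26-YFP, in which tamoxifen switches on YFP for good in cells that express Foxp3 at that time. All of these mice received tamoxifen, as 4 intraperitoneal injections. Treatment fell between days 0 and 10 (perinatal) or days 35 and 45 (adult). From either treatment the GFP+ YFP+ cells are called perinate-tagged or adult-tagged here, and the GFP+ YFP- cells sorted beside them are called untagged. The 2 thymus groups were CD4+ GFP+ cells from mice labelled male, 4 days of age for perinate thymus and 5 weeks for adult thymus. Spleen cells were sorted on a FACSAria and thymus cells on a MoFlo, so tissue, sex, age and sorter cannot be told apart between them. The YFP mark records Foxp3 expression during treatment only, so untagged cells of either mouse include cells that arose at other times. The sources used here do not say whether replicates were separate animals or pools, and p-values then measure only the spread between these samples. A chimera arm that the series text describes was not analysed here.

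Replication-dependent histone genes are transcribed mainly in S phase, when DNA is copied. Their messenger RNAs end in a stem-loop bound by the protein Slbp instead of a poly(A) tail, and are degraded when DNA synthesis stops. Tregs divide in the periphery as well as in the thymus, and in a sorted population the level of these RNAs depends on how many cells are copying DNA and on how much each cell makes. In bulk samples, fewer cells of a kind and less RNA per cell cannot be told apart. Values are log2 intensities, and differences are log2 with a standard error (SE). Levels are compared between groups for 1 probe set at a time. Between probe sets they serve only to set members against background and to choose which members are given in full.

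In 1 array the sex on the label and the signal disagreed. The Y-linked gene Eif2s3y read 9.79 in perinate-tagged replicate 2, whose label says female, and 3.95 to 4.90 in the remaining 11 arrays from spleen. Xist read 8.38 on that array, between the 11.86 to 12.41 of the other spleen arrays and the 5.70 to 6.30 of the male thymus arrays. Whether the sample mixes cells of both sexes was not tested. Counts of calls in the comparisons that use this array were also made without it. Transcripts that should be absent by sex (Y-linked genes on female arrays and Xist on male arrays, 39 values, that array left out) lay between 3.95 and 6.30, which gives the level of background. The Treg genes Foxp3 and Il2ra lay above 11.88 and 12.17 on all 18 arrays. The interquartile range of log2 values on an array was 2.94 to 3.12 in perinate-tagged and 2.49 to 2.88 in adult-tagged arrays, 2.88 to 3.00 and 2.51 to 3.07 in the untagged arrays of perinate- and adult-treated mice, and 3.00 to 3.06 and 2.08 to 2.82 in perinate and adult thymus. The number of arrays limits the precision.

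The first comparison asks how perinate-tagged Tregs differ from adult-tagged Tregs in adult spleen. Adult-tagged cells expressed Foxp3 during adult treatment and may include cells that arose earlier, so these are not 2 groups by time of origin. Of the 26 histone genes 14 were higher in perinate-tagged cells and 0 were lower, with a median difference of 0.79 against -0.08 over all probe sets (limma over all 24922 probe sets, Benjamini-Hochberg adjusted p under 0.05). The share called over all probe sets was 7.01% in either direction, 5.67% higher and 1.34% lower. By class, 2 of 4 H1, 2 of 4 H2A, 6 of 9 H2B, 0 of 3 H3 and 4 of 6 H4 genes rose. In 19 of 26 genes every perinate-tagged array lay above every adult-tagged array, which held for 18% of all probe sets. Perinate-tagged cells had the highest of the 4 spleen means for 21 of 26 genes, and adult-tagged cells had the lowest for 21. These counts of means include genes within background and were not made over all probe sets. Without perinate-tagged replicate 2 the number of called genes remained 14, and these were the same 14 genes. With each array's interquartile range as a covariate 6 were called (H1f1, H1f5, H2ac4, H2bc3, H2bc9 and H2bc14). That range was higher on each of the perinate-tagged arrays than on each of the adult-tagged arrays, and its part in the result was not tested. For counts with a covariate added or an array left out, here and further on, the share called over all probe sets is not given.

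Linker histones bind DNA between nucleosomes, and the H1 genes split into a pair that rose and a pair that did not. H1f5 (probe set 10408081, formerly Hist1h1b, encoding H1.5) read 8.07, 8.33 and 8.06 in adult-tagged and 9.96, 10.13 and 10.71 in perinate-tagged cells. Its 3 perinate-tagged arrays lay above its 3 adult-tagged arrays by a wide gap, and the difference was 2.12 ± 0.23 (SE; limma adjusted p = 0.00013), or 4.33-fold. H1f1 (probe set 10404069, formerly Hist1h1a, encoding H1.1, a form known from lymphoid tissue and testis) read 8.31, 8.24 and 8.23 in adult-tagged and 9.64, 9.73 and 9.97 in perinate-tagged cells. These groups did not overlap either, and the difference was 1.52 ± 0.20 (limma adjusted p = 0.00048). H1f2 (probe set 10404059, formerly Hist1h1c, encoding H1.2, which is also known to be made in cells that do not divide) read 8.27, 8.47 and 8.57 against 8.16, 8.60 and 8.50. Its groups overlapped and its difference was -0.02 ± 0.16. H1f3 (encoding H1.3) had a difference of 0.01 ± 0.17 at levels of 5.95 to 6.48 on these arrays, at the upper edge of background.

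The promoters of these genes are shown because the members of a class are known to share short elements there. Of the 26 members 22 had an entry among RefSeq promoters (GRCm38.p6), with 250 bases before and 50 after the start, and motifs were searched on both strands as exact letters. The 130 bases before the start, 5′ to 3′ on the gene's strand, lie at chr13:21780626-21780755, minus strand (H1f5), chr13:23763538-23763667, plus strand (H1f1), and chr13:23738677-23738806, plus strand (H1f2). Capitals mark AAACACA, the H1 box of H1 promoters.
H1f5: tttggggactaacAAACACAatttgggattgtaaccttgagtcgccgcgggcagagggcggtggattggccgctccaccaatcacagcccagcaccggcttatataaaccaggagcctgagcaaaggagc
H1f1: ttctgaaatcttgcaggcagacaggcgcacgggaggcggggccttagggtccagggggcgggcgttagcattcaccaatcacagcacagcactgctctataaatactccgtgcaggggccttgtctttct
H1f2: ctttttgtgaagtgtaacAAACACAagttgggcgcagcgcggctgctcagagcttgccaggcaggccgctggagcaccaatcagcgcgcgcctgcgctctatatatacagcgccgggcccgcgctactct
The letters AAACACA were found in 3 of 4 H1 promoters (H1f2, H1f3 and H1f5), in 7 of 22 member promoters and in 7.18% of 32851 promoters. H1f1, which rose, had no match in its window, and H1f2, which did not pass the test, had one at -112 to -106 from the start. The match in H1f5 lies at -117 to -111.

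H2A and H2B form the dimers that flank the H3-H4 core of a nucleosome, and many of their genes stand in divergent pairs. H2ac15 (probe set 10408077, formerly Hist1h2ak) read 11.48, 11.81 and 11.59 in adult-tagged and 12.78, 12.45 and 12.89 in perinate-tagged cells. No array of one group reached the other, and the difference was 1.08 ± 0.18 (limma adjusted p = 0.0024). H2ac1 (probe set 10404127, formerly Hist1h2aa, known as a testis form) read 8.26, 8.00 and 7.99 against 8.50, 8.50 and 8.75. Its groups did not overlap, but its difference of 0.50 ± 0.14 missed the threshold (limma adjusted p = 0.052). H2ac4 (probe set 10404063, formerly Hist1h2ab) is singled out after its values were seen, since it was called at levels within background. It read 3.78, 4.30 and 4.22 in adult-tagged and 6.30, 6.15 and 6.21 in perinate-tagged cells. Both groups lay at or below 6.30, the upper end of background, so no size is given for its difference. Among the 22 genes with a mean above background in any of the 6 groups, 13 were called. Of these 22, H1f3 and H2bc21 had a mean above it in adult thymus only. The fourth H2A gene, H2ac8, lay within background like H2ac4 and did not pass the test.

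Of the 9 H2B genes 6 rose in perinate-tagged cells. H2bc14 (probe set 10403943, formerly Hist1h2bm) read 10.35, 10.85 and 10.74 in adult-tagged and 12.16, 11.90 and 12.35 in perinate-tagged cells, and the difference was 1.49 ± 0.20 (limma adjusted p = 0.00044). H2bc3 (probe set 10404061, formerly Hist1h2bb) read 9.33, 9.91 and 9.74 against 11.52, 10.69 and 11.47, a difference of 1.56 ± 0.21 (limma adjusted p = 0.00058), or 2.96-fold. H2bc9 (probe set 10408197, formerly Hist1h2bh) read 10.24, 10.38 and 10.46 against 11.45, 11.14 and 11.56, a difference of 1.03 ± 0.16 (limma adjusted p = 0.0014). In these genes no perinate-tagged array fell to the level of an adult-tagged one, and perinate-tagged replicate 4 was the lowest of its group. H2bc18 (0.89 ± 0.16), H2bc1 (0.85 ± 0.17, formerly Hist1h2ba, a testis form) and H2bc8 (0.48 ± 0.12) also rose. H2bc22 had a difference of 0.60 ± 0.17 (limma adjusted p = 0.055). H2bc4 (-0.04 ± 0.43) and H2bc21 (0.01 ± 0.13) are known to be made from polyadenylated RNAs in cells that do not divide, besides their stem-loop form, and both overlapped between the groups. H2bc21 read 5.97 to 6.21 on the tagged arrays, which is within background. H2bc4 had the largest SE of the 26 genes in this comparison, with values from 5.25 to 7.71 on the untagged arrays.

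The next windows show H2B promoters, with the octamer ATTTGCAT, the element that the factor Oct1 binds, in capitals. They lie at chr13:21721914-21722043, plus strand (H2bc14), chr13:23746604-23746733, plus strand (H2bc3), and chr13:23543445-23543574, minus strand (H2bc9).
H2bc14: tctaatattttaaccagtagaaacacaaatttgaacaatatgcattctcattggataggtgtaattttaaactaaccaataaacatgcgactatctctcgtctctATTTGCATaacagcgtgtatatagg
H2bc3: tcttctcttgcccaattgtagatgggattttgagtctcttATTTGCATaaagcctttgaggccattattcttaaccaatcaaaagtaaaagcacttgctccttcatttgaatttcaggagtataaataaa
H2bc9: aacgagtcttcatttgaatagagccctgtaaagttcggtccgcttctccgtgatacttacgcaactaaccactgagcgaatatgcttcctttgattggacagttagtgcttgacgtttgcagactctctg
The octamer was found in 5 of 7 H2B promoters (H2bc1, H2bc3, H2bc8, H2bc14 and H2bc18), in 3 of 4 H2A promoters (H2ac1, H2ac4 and H2ac8), and in none of the H1, H3 and H4 promoters. It was present in 8 of 22 member promoters and in 1.74% of 32851 promoters. H2bc9 had no exact match in its 300 bases, and its RNA rose with those of H2bc14 and H2bc3. H2bc22, with a promoter entry but without a match, had the difference of 0.60 given above.

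H3 and H4 form the tetramer at the core of the nucleosome. All 3 H3 members gave low signal: H3c15 and H3c7 lay within background and H3c4 just above it. H3c4 (probe set 10404038, formerly Hist1h3d) read 6.26, 6.24 and 6.33 in adult-tagged and 6.68, 6.64 and 6.65 in perinate-tagged cells. The groups were narrow and did not overlap, yet the difference of 0.38 ± 0.11 missed the threshold (limma adjusted p = 0.053). Most H3 genes are covered by probe sets that name several genes and are described further on.

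Of the 6 H4 genes 4 rose. H4c6 (probe set 10408200, formerly Hist1h4f) read 7.42, 8.13 and 8.05 in adult-tagged and 9.38, 9.45 and 10.09 in perinate-tagged cells, a difference of 1.77 ± 0.30 (limma adjusted p = 0.003), or 3.42-fold. H4c4 (probe set 10404051, formerly Hist1h4d) read 10.75, 11.21 and 11.44 against 12.11, 12.41 and 12.62, a difference of 1.25 ± 0.23 (limma adjusted p = 0.0055). H4c14 (probe set 10500333, formerly Hist2h4, in the Hist2 cluster) read 10.38, 10.74 and 10.76 against 11.45, 11.62 and 11.83, a difference of 1.00 ± 0.18 (limma adjusted p = 0.004). In all of these the groups were apart, and perinate-tagged replicate 5 was the highest array of its group. H4c3 rose by 1.19 ± 0.29, while H4c8 (0.73 ± 0.24) and H4c9 (0.21 ± 0.14) did not pass the test.

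The H4 windows are shown because every H4 promoter searched held the same letters, GGTCCG, the core of an element of H4 promoters bound by the factor Hinfp. They are marked in capitals and lie at chr13:23581438-23581567, plus strand (H4c4), chr13:23551669-23551798, minus strand (H4c6), and chr13:22041363-22041492, minus strand (H4c9).
H4c4: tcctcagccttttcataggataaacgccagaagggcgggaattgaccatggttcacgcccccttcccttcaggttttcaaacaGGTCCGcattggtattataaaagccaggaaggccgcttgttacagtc
H4c6: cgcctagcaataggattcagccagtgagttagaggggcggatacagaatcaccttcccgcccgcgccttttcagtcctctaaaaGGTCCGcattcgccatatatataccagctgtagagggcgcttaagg
H4c9: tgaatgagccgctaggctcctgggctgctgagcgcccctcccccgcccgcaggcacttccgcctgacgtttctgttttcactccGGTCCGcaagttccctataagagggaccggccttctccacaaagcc
GGTCCG was found in 5 of 5 H4 promoters, in 6 of 22 member promoters and in 8.25% of 32851 promoters. In H4c3, H4c6 and H4c9 it starts at -46 from the start of the gene, in H4c4 at -47 and in H4c8 at -5. H4c9, which did not pass the test, and H4c6, with the largest H4 difference, hold the same letters at the same distance. The more common elements CCAAT and TATAAA were found in 19 and 15 of 22 member promoters, and in 37.4% and 13.6% of 32851 promoters.

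**Figure D1:**
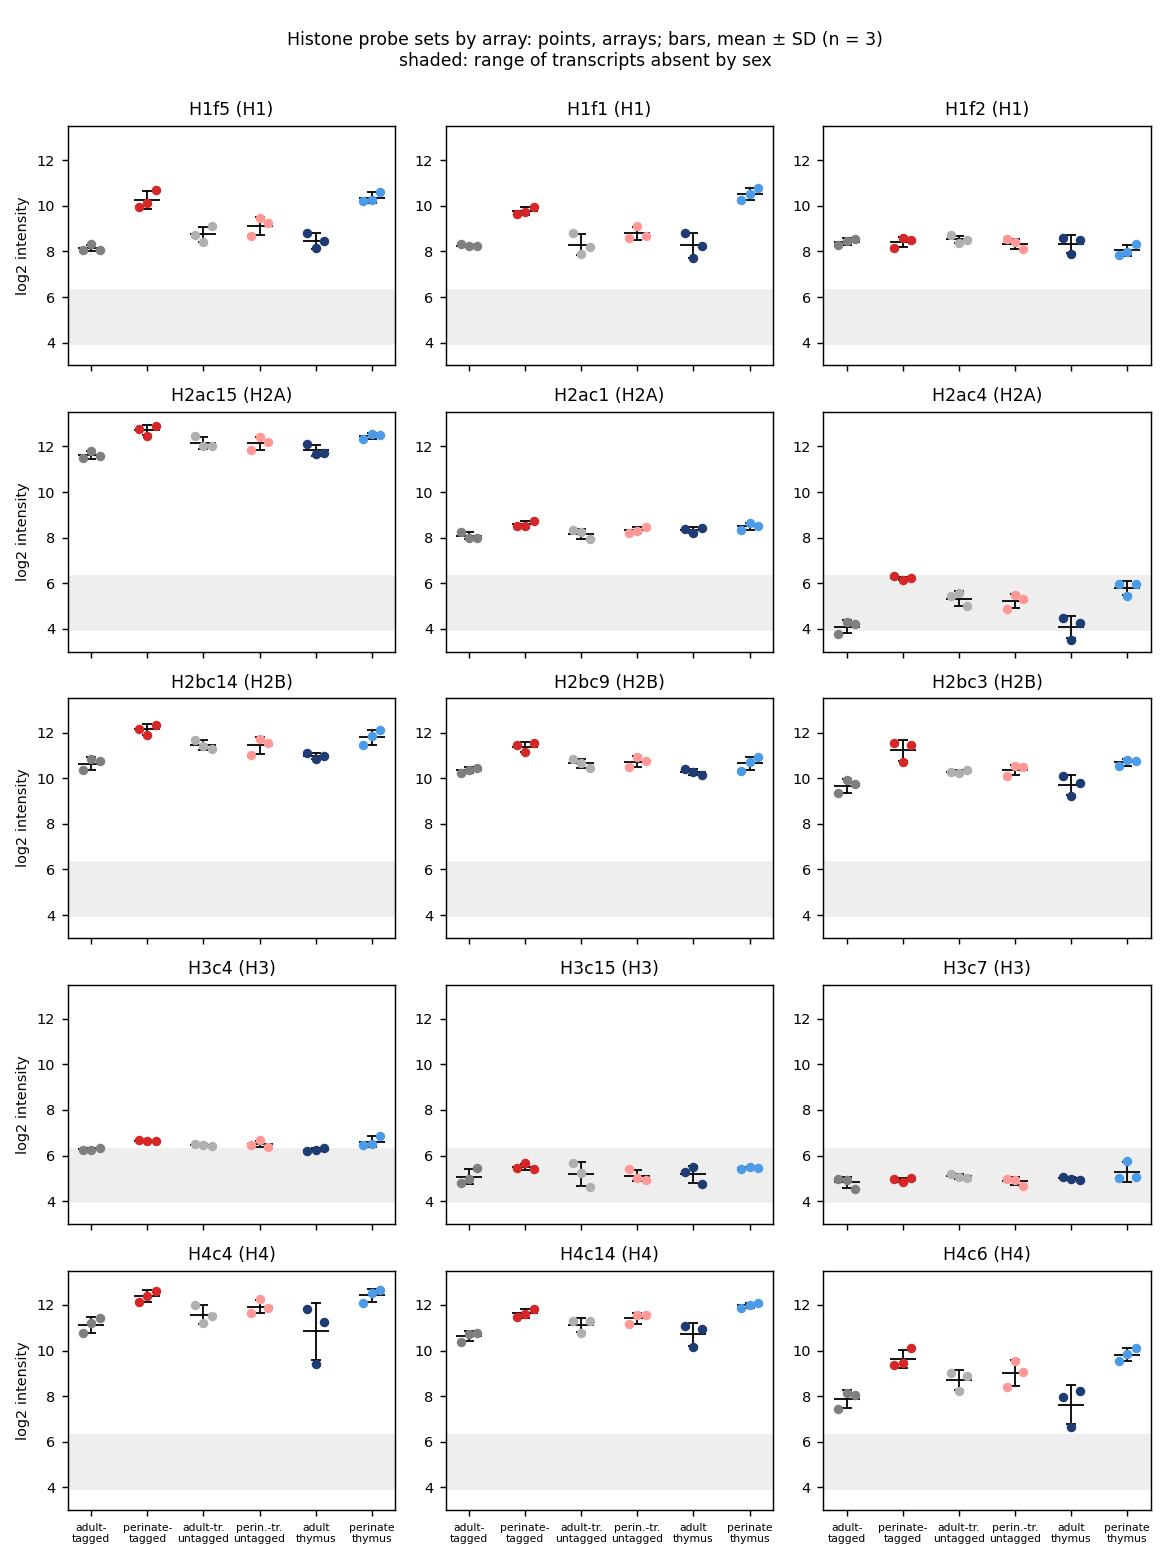
Log2 intensity (vertical axis) of 3 probe sets in each histone class on the 18 arrays, in the 6 groups; points are arrays, bars are the mean ± SD (n = 3), and the shaded band is the background range of 3.95 to 6.30. H1f5, H2bc14 and H4c6 are lowest in adult-tagged cells and highest in perinate-tagged cells among the spleen groups, while H1f2 overlaps among the 4 spleen groups.

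In untagged cells the timing of tamoxifen was not followed by a called difference in any histone gene. Of 26 genes 0 passed the test between perinate-treated and adult-treated mice (limma, lowest adjusted p = 0.84), and over all probe sets the share called was 0%. At an unadjusted p under 0.05 there were 2 of 26 genes and 1264 of all probe sets. The median difference of the 26 genes was 0.08. H1f5 read 8.73, 8.42 and 9.10 in adult-treated and 8.69, 9.45 and 9.23 in perinate-treated mice, so its groups overlapped. H2bc14 read 11.68, 11.40 and 11.26 against 11.03, 11.73 and 11.56, and H4c6 read 9.01, 8.22 and 8.89 against 8.40, 9.53 and 9.07. In each of these genes the arrays of both untagged groups were interleaved, and both untagged means lay between the adult-tagged and the perinate-tagged mean. The 6 H4 genes all had a positive difference (median 0.33), with none called. H2ac15 read 12.44, 12.01 and 11.998 against 11.85, 12.40 and 12.17, again with overlap.

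The difference in tagged cells exceeded that in untagged cells for 5 of 26 genes and fell short of it for 0, by a test of the interaction (limma over all probe sets, of which 1.58% were called in either direction, 1.44% higher and 0.144% lower). Apart from H2ac4, within background, these were H1f5 (1.74 ± 0.33, limma adjusted p = 0.016), H2bc14 (1.50 ± 0.28, adjusted p = 0.015), H2bc3 (1.49 ± 0.30, adjusted p = 0.024) and H2ac15 (1.09 ± 0.25, adjusted p = 0.048). H2bc9 just missed the threshold (0.95 ± 0.22, adjusted p = 0.052). H1f1 (1.01 ± 0.29) and H4c6 (1.48 ± 0.42) did not pass (adjusted p = 0.13 for both). No H3 or H4 gene passed, and the median of the 26 genes was 0.61. With the interquartile range as a covariate the count was 3, without H2bc3 and H2ac15. It was 3 without perinate-tagged replicate 2, the array that did not match its label, and the same 2 genes lost their call. Leaving out replicate 1 of the adult-tagged arrays gave 1, leaving out their replicate 3 or perinate-tagged replicate 5 gave 2, and leaving out adult-treated untagged replicate 5 or perinate-treated untagged replicate 3 gave 3.

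All 53 probe sets of small nucleolar RNAs had a positive difference in untagged cells between perinatal and adult tamoxifen (median 0.63), with 0 called. Their mean level was 9.18 ± 0.41 (SD) in perinate-treated untagged cells and 8.37 to 8.69 in the other groups. Within groups, the mean of the 26 histone genes on an array deviated with that of the small nucleolar RNAs (Pearson r = 0.79), of S phase genes (r = 0.74) and with the array's interquartile range (r = 0.60), over 18 arrays. For G2 and M phase genes r was 0.31. These are descriptions over arrays that share a normalization, and their part in the results was not tested.

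Tagged cells were then set against the untagged cells of the same treatment, which asks whether Tregs marked early or late differ from the remaining pool. These comparisons share arrays with those above. After perinatal tamoxifen 3 of 26 histone genes were higher in tagged cells and 0 lower (limma; over all probe sets 1.87% were called in either direction, 1.50% higher and 0.373% lower), with a median difference of 0.37. They were H1f5 (1.14 ± 0.23, adjusted p = 0.024), H1f1 (0.98 ± 0.20, adjusted p = 0.026) and H2ac4, which lay within background. H1f1 read 9.64, 9.73 and 9.97 in tagged and 8.59, 9.11 and 8.69 in untagged cells, with no overlap. H2bc3 (0.87 ± 0.21, adjusted p = 0.058) and H2bc9 (0.65 ± 0.16, adjusted p = 0.052) were next and did not pass. In 11 of 26 genes the tagged arrays all lay above the untagged ones, against 11.9% of all probe sets, and no H4 gene was among them. The count fell to 1 without perinate-tagged replicate 4, and that gene was none of the 3 above. It fell to 0 without perinate-tagged replicate 5, or without perinate-treated untagged replicate 3 or 5, and remained 3 without perinate-tagged replicate 2. Of 53 small nucleolar RNA probe sets 7 were called lower in the tagged cells, and all 53 differences were negative (median -0.82). Their part in the result was not tested, and without perinate-tagged replicate 2 there were 2 called.

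After adult tamoxifen 0 of 26 histone genes passed the test, as did 0% of all probe sets (limma, lowest adjusted p among the 26 genes = 0.094). At an unadjusted p under 0.05 there were 8 of 26 genes and 2693 of all probe sets. The differences of 22 of the 26 genes were negative, with a median of -0.28. In 12 genes each adult-tagged array lay below each untagged array, against 7.50% of all probe sets. H2bc14, at 10.35, 10.85 and 10.74 in tagged and 11.68, 11.40 and 11.26 in untagged cells, was one of these (-0.80 ± 0.20). H4c14 was another (-0.49 ± 0.18), with 10.38, 10.74 and 10.76 against 11.28, 10.79 and 11.30, where the nearest arrays were close together. H1f1 was not (-0.03 ± 0.20), since its adult-tagged arrays at 8.23 to 8.31 lay inside the untagged range of 7.88 to 8.79.

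**Figure D2:**
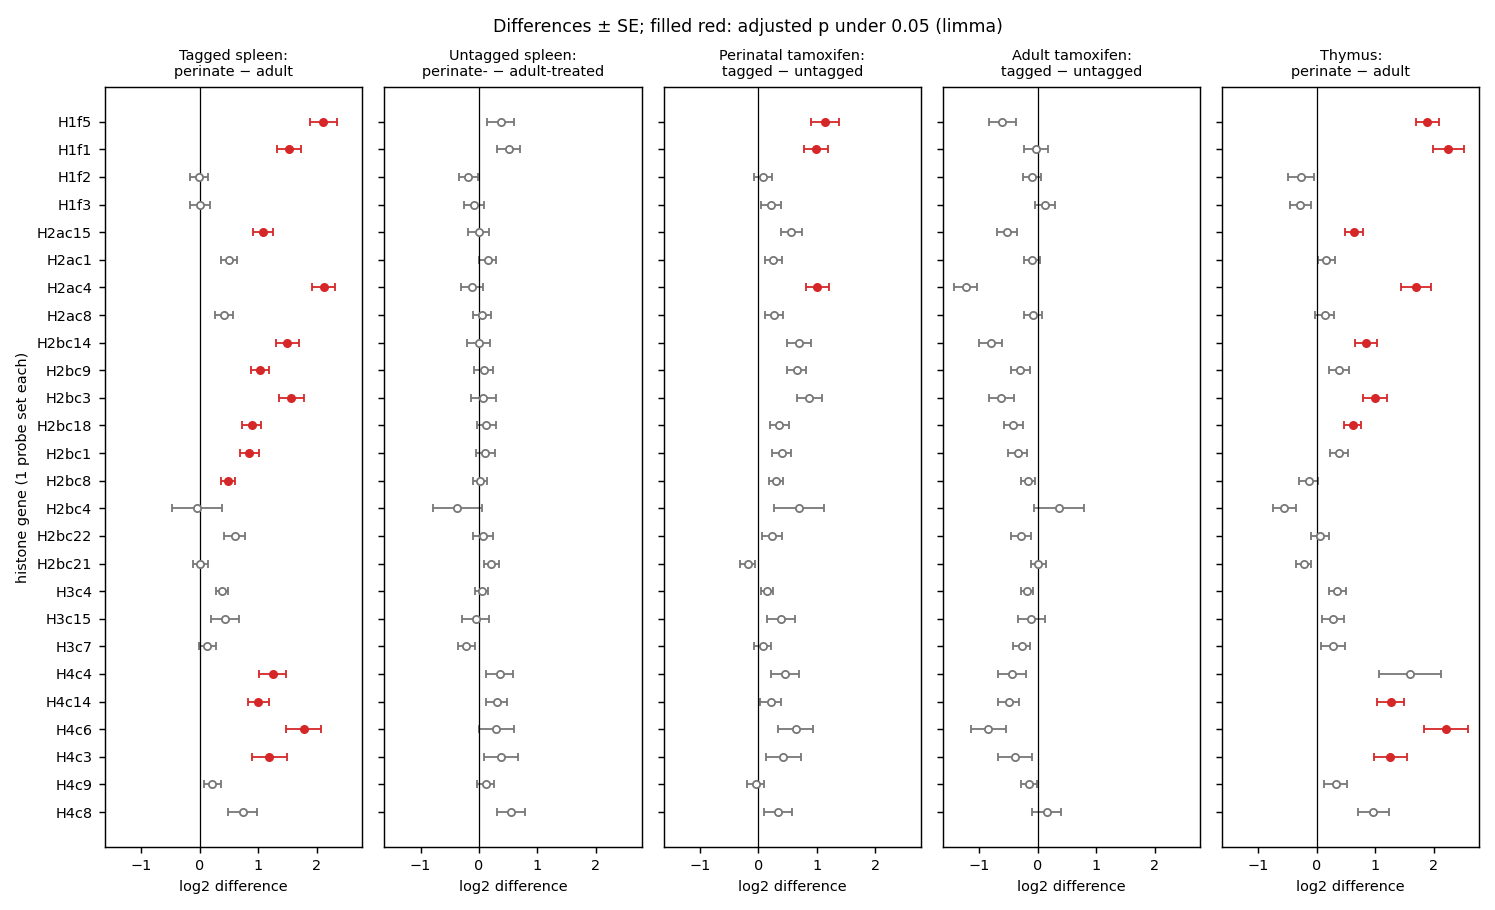
Log2 difference ± SE (horizontal axis) of the 26 histone genes (vertical axis, 1 probe set each) in 5 comparisons, each within spleen or thymus; filled red points passed an adjusted p of 0.05 (limma). Called genes are all to the right of 0: 14 in tagged spleen cells, 10 in thymus, 3 after perinatal tamoxifen, and 0 in the other panels.

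The thymus comparison asks whether Tregs in the thymus itself differ between newborn and adult mice. Of 26 histone genes 10 were higher in perinate thymus and 0 lower (limma; over all probe sets 9.58% were called in either direction, 6.54% higher and 3.04% lower). The median difference was 0.38 against -0.13 over all probe sets. Without adult thymus replicate 2, 12 were higher and 2, H1f2 and H2bc4, were lower. The share called over all probe sets in that setting is not given here. By class, 2 of 4 H1, 2 of 4 H2A, 3 of 9 H2B, 0 of 3 H3 and 3 of 6 H4 genes rose. In 14 genes each perinate array lay above each adult array, against 20.7% of all probe sets, and in 2 (H2bc4 and H2bc21) each lay below, against 26.1%. H2bc21 read 6.02 to 6.37 in thymus, at the upper edge of background.

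H1f1 had the largest difference: it read 8.80, 7.73 and 8.25 in adult and 10.25, 10.51 and 10.77 in perinate thymus, a difference of 2.25 ± 0.26 (limma adjusted p = 0.0027), or 4.75-fold. H1f5 read 8.83, 8.13 and 8.45 against 10.21, 10.25 and 10.62, a difference of 1.89 ± 0.20 (limma adjusted p = 0.0019). H1f2 read 8.61, 7.87 and 8.49 against 7.86, 7.96 and 8.33, and its difference was -0.27 ± 0.22 (limma adjusted p = 0.35). Without adult thymus replicate 2 H1f2 was called lower (-0.50, limma adjusted p = 0.041), as it was with the interquartile range as a covariate (-0.79, limma adjusted p = 0.037). H1f3 had a difference of -0.28 ± 0.18.

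Among H4 genes, H4c6 read 7.98, 6.65 and 8.24 in adult and 9.52, 9.86 and 10.09 in perinate thymus, a difference of 2.20 ± 0.38 (limma adjusted p = 0.012). H4c14 read 11.08, 10.15 and 10.93 against 11.85, 12.003 and 12.09, a difference of 1.26 ± 0.23 (limma adjusted p = 0.016). H4c4 read 11.82, 9.41 and 11.27 against 12.09, 12.52 and 12.66, and its difference of 1.59 ± 0.53 missed the threshold (limma adjusted p = 0.087). Adult thymus replicate 2 was the lowest array in each of these H4 genes, and it also had the smallest interquartile range of the 18 arrays (2.08). Without it H4c4 had a difference of 0.88 and was called (limma adjusted p = 0.016), and with the interquartile range as a covariate its difference was -0.02. H4c3 also rose (1.26 ± 0.29, limma adjusted p = 0.033).

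Most H2A and H2B genes had smaller differences in thymus than in tagged spleen cells, and no member's difference between the tissues passed a test. H2ac15 read 12.10, 11.68 and 11.72 in adult and 12.33, 12.56 and 12.51 in perinate thymus, a difference of 0.63 ± 0.15 (limma adjusted p = 0.04). Its call was lost under 7 of 16 alternatives, with a difference of 0.34 after quantile normalization (limma adjusted p = 0.11). H2bc3 read 10.08, 9.24 and 9.78 against 10.53, 10.81 and 10.74 (0.99 ± 0.21), and H2bc14 read 11.10, 10.82 and 10.95 against 11.44, 11.86 and 12.10 (0.84 ± 0.18), both called. With the interquartile range as a covariate neither was called (0.47 for H2bc3 and 0.66 for H2bc14). H2bc9 read 10.41, 10.26 and 10.14 against 10.32, 10.70 and 10.92, and its groups overlapped (0.38 ± 0.17). H2bc18 rose by 0.61 ± 0.15, and H2ac4 was called at background levels of 3.52 to 5.96, which leaves 9 called among the 22 genes above background. H2ac1, at 8.36, 8.20 and 8.42 against 8.32, 8.65 and 8.51, overlapped (0.16 ± 0.14), as did H2bc8 (-0.14 ± 0.16). H3c4 read 6.21, 6.25 and 6.32 in adult and 6.47, 6.50 and 6.87 in perinate thymus, without overlap but short of the threshold (0.35 ± 0.15). The count over all classes was 5 without adult thymus replicate 3, and 4, 3 and 2 without perinate thymus replicates 1, 2 and 3. H1f1 and H1f5 were called in every one of these.

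Spleen and thymus were compared directly as the tagged perinate-minus-adult difference in spleen minus the perinate-minus-adult difference in thymus. Of 26 genes 0 passed (limma, lowest adjusted p = 0.11; over all probe sets 2.26% were called, 1.51% higher and 0.750% lower), and 5 of 26 genes and 3562 of all probe sets did at an unadjusted p under 0.05. The spleen difference minus the thymus difference was positive for all 9 H2B genes (median 0.54). Among them were H2bc4 (-0.04 in spleen and -0.55 in thymus) and H2bc21 (0.01 and -0.22, at levels within or near background). The same value was negative for all 6 H4 genes (median -0.25). Without adult thymus replicate 2 it was positive for all 6 H4 genes (median 0.09), so the sign for H4 rested on that array, while the 9 H2B genes stayed positive. Among the largest were H2bc9 (0.65 ± 0.24), H2bc14 (0.65 ± 0.28) and H1f1 (-0.73 ± 0.34). Without perinate thymus replicate 3 the count was 1. Since genes of a class are so alike, their probe sets are not independent measurements of this pattern.

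A further 24 probe sets name several genes, a clustered histone gene among them, and are no members. Each names 2 to 20 symbols, and their probes cannot assign signal to 1 gene: 10 name H3 genes, 6 H2B, 5 H4, 2 H2A and H3 genes together and 1 an H1 and an H2B gene. In tagged spleen cells 23 of these 24 probe sets were higher in perinate-tagged cells and 0 lower (limma, median 1.05). Over all probe sets 5.67% were called higher and 1.34% lower there. The 10 H3 probe sets, whose own single-gene members were at or near background, read 11.63 to 12.22 in adult-tagged and 13.06 to 13.42 in perinate-tagged cells, and all 10 were called (median 1.25). They read 12.52 to 12.93 and 12.24 to 13.14 in the untagged cells of adult- and perinate-treated mice. The mean over the 10 was 12.05 in adult-tagged, 13.31 in perinate-tagged and 12.74 and 12.82 in the untagged cells, which lay between. In the interaction test 15 of the 24 passed, against 1.58% of all probe sets. All 10 H3 probe sets were included and none of the 5 H4 ones, and 10 of the 24 passed without perinate-tagged replicate 2. In thymus 17 of 24 were higher in perinate cells, against 6.54% of all probe sets. All 10 H3 (median 1.20) and all 5 H4 probe sets (median 1.52) were called there, but 0 of 6 H2B ones (median 0.43). Between tagged and untagged cells 0 of 24 passed after either treatment, against 1.87% of all probe sets after perinatal and 0% after adult tamoxifen. After adult tamoxifen 23 of the 24 had a negative difference, and 18 were negative at an unadjusted p under 0.05. At that level 2693 of all probe sets passed in either direction. These probe sets overlap in the genes they name and repeat much of the same signal.

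Genes that act on histone RNA were described from a list of 23 measured genes. In perinate-tagged against adult-tagged cells 4 were higher and 0 lower, with a median difference of 0.31: Slbp, which binds the stem-loop (1.13, limma adjusted p = 0.0005), the kinase Cdk2 (0.80) and its partners Ccne1 (0.99) and Ccne2 (1.63), which phosphorylate the histone gene coactivator Npat. These 4 are named because they were the calls. Npat itself (0.35), Hinfp (0.23), the processing factor Lsm11 (-0.08) and Zfp473 (0.01) did not pass. The genes named by rule, the cap-binding Ncbp1 (0.21), the nuclease Eri1 (0.30), Tut7 (0.31) and the RNA endonuclease Cpsf3 (-0.06), did not pass either. In the interaction test 2 passed (Slbp, 1.13, and Ccne2, 1.74). In thymus 6 were higher and 0 lower (median 0.42), among them Cdk2 (0.91), while Slbp (0.56, limma adjusted p = 0.055) just missed the threshold. Without adult thymus replicate 2 there were 10. For this list and the next ones, the shares of all probe sets called higher were 5.67% in tagged spleen cells and 6.54% in thymus. The shares were 1.44% in the interaction and 1.50% in tagged against untagged cells after perinatal tamoxifen.

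Of 21 histone chaperone and import genes 10 rose in perinate-tagged cells and 0 fell (median 0.55). Asf1b (1.87, limma adjusted p = 2.5e-05), which hands H3-H4 to the assembly factor, and Chaf1a (1.08) and Chaf1b (1.24), subunits of that factor, were among them. Of those named by rule Rbbp7 (0.55) rose too, while Rbbp4 (0.08), Nap1l4 (0.15) and Atrx (0.19) did not pass. Hira (0.03), which places H3.3 outside of DNA replication, did not pass. Asf1b, Chaf1a and Chaf1b were chosen after their values were seen. In thymus 10 of 21 were higher and 0 lower (median 0.54), with Asf1b at 1.57. Asf1b also passed in tagged against untagged cells after perinatal tamoxifen (1.49), where 3 of 21 did.

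Of 11 other histone genes outside the rule, most of them variants made throughout the cell cycle, 4 rose in perinate-tagged cells and 0 fell (median 0.55). They were H2ax (1.27), which is phosphorylated at DNA breaks, Cenpa (1.24), the H3 variant of centromeres, H2aw (0.80) and H2az2 (0.55). H2az1 (0.69, limma adjusted p = 0.065), Macroh2a1 (0.43), H3f3a (-0.06) and H1f10 (-0.09) did not pass. H2aw belongs to a histone cluster that the rule does not take. In thymus 3 of 11 rose and 0 fell, with Macroh2a1 at 1.26.

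Cell cycle genes were described from a list for S phase and a list for G2 and M phase. Of 20 S phase genes 19 rose in perinate-tagged cells (median 1.12) and 17 in perinate thymus (median 1.30), with 0 lower in either. Of 16 G2 and M phase genes 16 rose in both (medians 2.24 and 1.49). Pcna, the clamp of DNA polymerase, had a difference of 0.51 in tagged spleen cells, the smallest of the S phase list. Ccnb2, a mitotic cyclin of the G2 and M phase list, had a difference of 2.56 there, above the median of its list. Neither list had a call between the untagged groups. After adult tamoxifen all 16 G2 and M phase genes were negative in tagged against untagged cells (median -1.01) and 0 were called. The G2 and M phase list read 7.12 ± 0.26 (SD, n = 3) on average in adult-tagged, 9.26 ± 0.02 in perinate-tagged, 8.17 ± 0.25 and 8.13 ± 0.42 in the untagged cells of adult- and perinate-treated mice, and 7.58 ± 0.14 and 9.05 ± 0.12 in adult and perinate thymus. The mean of the 26 histone genes kept the same order within spleen and within thymus apart from the untagged pair: 7.66 ± 0.11 in adult-tagged, 8.50 ± 0.17 in perinate-tagged, 7.96 ± 0.22 and 8.07 ± 0.18 in the untagged cells, and 7.72 ± 0.29 and 8.38 ± 0.16 in adult and perinate thymus. The untagged groups differed by less than their spread in both.

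**Figure D3:**
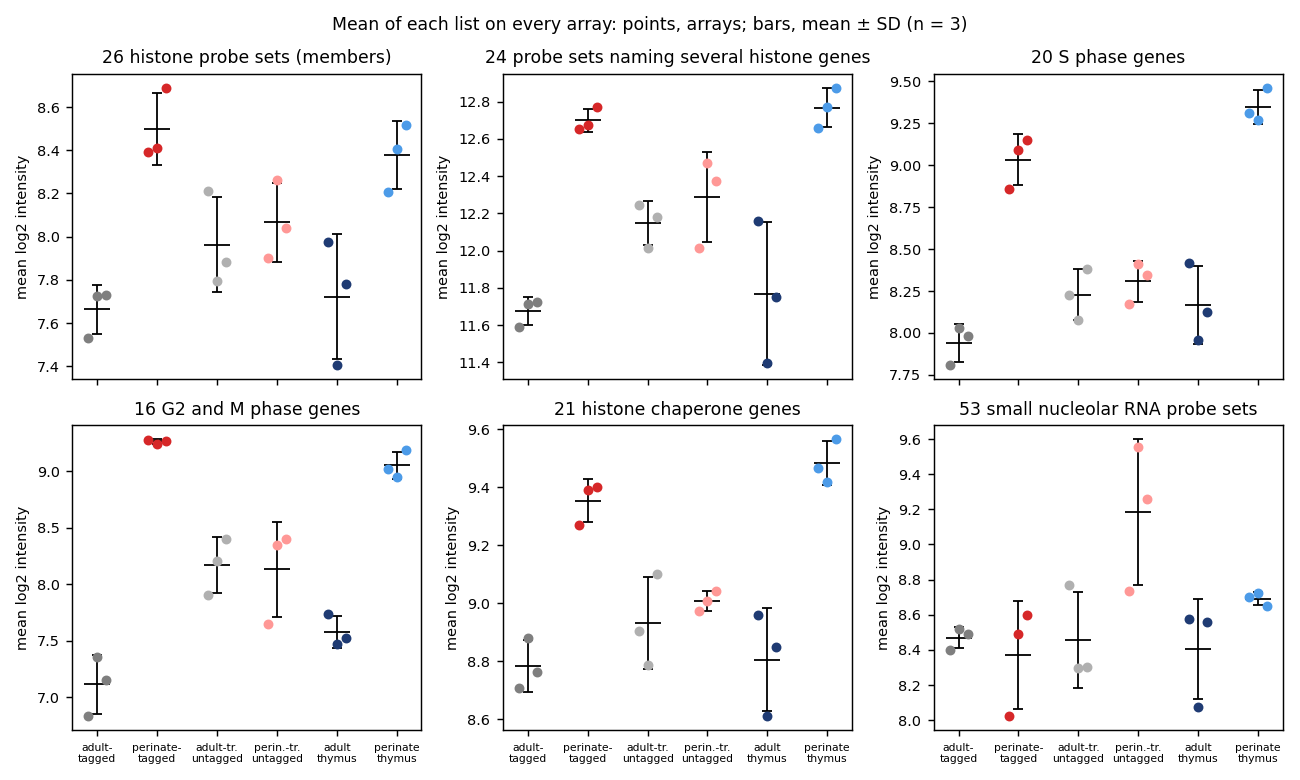
Mean log2 intensity (vertical axis) of the 26 histone members, the 24 probe sets naming several genes, and 4 other lists on each of the 18 arrays; points are arrays and bars are the mean ± SD (n = 3) of the 6 groups. The histone, S phase, G2 and M phase and chaperone panels are lowest in adult-tagged and highest in perinate-tagged cells among the spleen groups, while small nucleolar RNAs are highest in perinate-treated untagged cells (9.18 on average).

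Markers of other cell types were averaged over each list on each array. The 4 erythroid markers averaged 6.16 to 6.37 on perinate-tagged and 6.26 to 6.49 on adult-tagged arrays, with 0 called. The 8 stroma and epithelium markers averaged 7.33 to 7.57 and 7.38 to 7.68 there, with 1 called higher (Epcam, at 7.54 against 6.47). The 8 myeloid markers averaged 6.28 to 6.55 on perinate-tagged and 6.11 to 6.16 on adult-tagged arrays, and 1 of the 8 was called higher (2 without perinate-tagged replicate 2). Mpeg1 had the largest myeloid difference, at 6.99 against 5.71. The 5 B cell markers averaged 6.34 to 6.51 and 6.32 to 6.40 there, with 1 called higher (Cd79b, at 9.55 against 8.89). Immature thymocyte markers averaged 7.02 to 7.14 in perinate and 7.41 to 7.45 in adult thymus, with Cd8a at 9.75 and 10.36 and 1 of 7 called, lower in perinate cells. The B cell markers averaged 6.20 to 6.31 in perinate and 6.54 to 6.67 in adult thymus, with 1 of 5 called, lower in perinate cells. Of the 8 stroma and epithelium markers 1 was called higher in perinate thymus, where Sparc differed most (8.39 against 6.88). No erythroid or myeloid marker was called in thymus. The part of these markers in the histone results was not tested.

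Under quantile normalization or median centring none of the 26 called single-gene results changed sign, and 7 of the 65 uncalled ones did, H1f2 in tagged spleen cells among them (0.07 with centring). With quantile normalization the median difference of the 26 genes was 0.75 in tagged spleen cells and 0.53 in thymus, and with each array centred on its median it was 0.88 and 0.50. The same settings moved the median over all probe sets from -0.08 to -0.02 and 0.01 in spleen, and from -0.13 to -0.02 with either in thymus, where the shift was over 0.1. Of the 1746 probe sets called in tagged spleen cells 1412 were higher, against 1051 of 1525 with quantile normalization and 1791 of 1991 with centring. In thymus 1630 of 2388 were higher, against 1295 of 2217 and 2158 of 2625. Between tagged and untagged cells after perinatal tamoxifen 374 of 467 were higher, against 356 of 536 and 348 of 408.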

How the data were processed

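RNA of 18 sorted Treg samples (6 groups of 3) was measured on 1 array each, per the labels. The authors deposited linear intensity values, for which the submitters' processing notes name RMA and Affymetrix Power Tools (versions and genome build are not given in the sources used here). Values ran from 6.809 to 18850, with 0 below 1, so log2 was taken with a pseudocount of 0, and no further normalization was done. Of 24922 probe sets 21425 carry 1 symbol, 1399 several and 2098 none.

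Every probe set was tested, with no filter on low values, with limma 3.58.1 in R 4.3.3 (lmFit, eBayes, 1 coefficient per group, two-sided), Benjamini-Hochberg over all probe sets of a comparison and a threshold of 0.05. Spleen comparisons used the 12 spleen arrays, the thymus comparison its 6 arrays, and the comparison of tissues all 18. For 1 gene, an exact permutation of 3 arrays and 3 can give no p below 0.1. Members and gene lists were chosen with earlier results of these data known. Given with every array's value are the 3 members of highest mean in each class. Up to 4 called members of largest difference per comparison and up to 4 list genes of highest mean are also named, members within background are given as counts (except H2ac4, whose values are shown), and other genes named were chosen after their values were seen.

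The code was tested on simulated data: for tagged spleen cells it recovered 79 of 100 probe sets given a log2 change of 1 and 95 of 100 given a change of 2, making 6 false calls over 24922 probe sets, and for thymus 56 and 92, with 6 false calls. The simulated noise was independent between probe sets and arrays, without array-wide differences. These rates therefore need not hold for the real arrays. Alternatives covered normalization, filters, 1 probe set per gene, array weights, the prior on the variance, which arrays were fitted, interquartile range, pairing and leaving out each array. Promoter letters are RefSeq's (GRCm38.p6). Figures were drawn with matplotlib 3.10.9.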

Additional observations from a re-analysis of the deposited data

Results flagged for a closer look

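For 5 histone genes the perinate-minus-adult difference was larger in tagged than in untagged spleen cells by a test of the difference itself (limma, adjusted over all probe sets). The excess was 2.24 (log2) for H2ac4, 1.74 for H1f5, 1.50 for H2bc14, 1.49 for H2bc3 and 1.09 for H2ac15. In all 5 the 3 perinate-tagged arrays lay above the 3 adult-tagged arrays, and the untagged groups overlapped. H2ac4 lay within background, so that its value is no measured size. H2ac15 lost the call under 11 of 22 alternatives and H2bc3 under 9 of 22, while H1f5 and H2bc14 lost it under 3 of 22 each.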

How the results depend on the processing

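Of 26 called results for single genes 0 changed sign and 7 kept their call under every alternative, and 71 of 438 settings lost one. Of 65 uncalled results 17 changed sign in 36 settings, among them H4c4 in thymus (from 1.59 to -0.02 with the interquartile range added to the fit), and 17 were called under some alternative. The probe sets naming several genes and the lists were tried only without perinate-tagged replicate 2 and adult thymus replicate 2, chosen after seeing the data. Counts of called histone genes moved by over 1.5 times as follows. With the interquartile range as a covariate 6 were called in tagged spleen cells (14 otherwise), 3 in the interaction (5 otherwise) and 1 in the comparison of tissues (0 otherwise). With 1 probe set per gene, or with a trended and robust prior, 5 were called in tagged against untagged cells after perinatal tamoxifen (3 otherwise) and 1, H2ac4, lower, after adult tamoxifen (0 otherwise). With array weights 6 were called after perinatal tamoxifen, 21 in thymus (10 otherwise, 4 of the 21 lower) and 7 in the comparison of tissues. The weights did not converge in 2 of 7 fits, those of thymus and of the tissues. For these settings and for arrays left out, the share called over all probe sets is not given here. The counts therefore lack that comparison. Leaving out 1 array at a time gave 12 to 14 calls in tagged spleen cells, 0 in untagged cells, 1 to 6 in the interaction, 0 to 3 after perinatal tamoxifen, 0 after adult tamoxifen, 2 to 14 in thymus and 0 to 1 between the tissues. Same-numbered arrays deviated together with r of 0.43, 0.05 and 0.31 in the untagged groups and -0.04, -0.11 and 0.26 in the thymus groups. Tagged and untagged cells of 1 treatment may come from the same mice, which the sources do not say. For these r was -0.09 and -0.06 (perinatal, numbers 4 and 5) and -0.05 (adult, number 3). Not all of these same-number values were over 0.1, so the numbers were not taken to pair the arrays, which were fitted as independent. Arrays of different number gave r of -0.37 to 0.14 between the untagged groups and -0.44 to 0.30 between the thymus groups. Between tagged and untagged cells they gave -0.08 to 0.16 (perinatal) and -0.64 to 0.56 (adult). With a replicate block the counts were 0 between untagged groups, 1 in the interaction (H2ac4, within background), 4 after perinatal tamoxifen and 8 in thymus. A block in the fit of all groups, chosen after seeing the data, gave 4 in tagged spleen cells, 0 after adult tamoxifen and 0 between the tissues, where the groups compared share few or no numbers. Signal limits H2ac4, H2ac8, H3c7 and H3c15, whose group means lay within background in all groups.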
